A study of Homo sapiens with 6 samples.

Results

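The 10 genes described here encode feedback inhibitors and output factors of the ERK pathway: the MAP kinase phosphatases DUSP4, DUSP5 and DUSP6, the Sprouty proteins SPRY1, SPRY2 and SPRY4, the Sprouty-related proteins SPRED1 and SPRED2, and the ETS transcription factors ETV4 and ETV5. They were chosen by gene symbol, and all 10 were found among the 57688 rows of the expression table. RNA was sequenced from WM3248, an established human melanoma cell line taken from a primary tumour. In 3 libraries (siNC) the cells had received a commercial negative control siRNA, and in the other 3 (siPGC1a) an siRNA against PPARGC1A, the gene of the transcriptional coactivator PGC1-alpha. Cells of both groups received 30 nM siRNA in lipid complexes, in medium that contained serum, insulin and epidermal growth factor, and RNA was taken at 48 h. The comparison is of 1 cell line and, per the labels, of 1 siRNA product against the target, with a sequence not used here. Whether replicate libraries stem from separate cultures is not in the labels, so every p-value below reflects spread among these samples alone, and that spread may be technical.

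ERK is the last kinase of the RAS, RAF and MEK cascade, and its activity raises the transcription of genes that restrain it. Among these, the dual-specificity phosphatases take phosphate off ERK, Sprouty proteins act on signalling at or below growth factor receptors, and SPRED proteins bring the RAS inactivator NF1 to the membrane. ETV4 and ETV5 are transcription factors of the PEA3 group whose genes are also switched on by ERK signalling, in part by relief from the repressor CIC. In melanoma, where BRAF and NRAS are often mutated, transcripts of these genes are widely used as a readout of ERK pathway output.

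FPKM are fragments scaled by gene length and by library size. The library size in that scaling was estimated at 25180000 to 26440000 reads, from the steps between low FPKM values. PPARGC1A was at 0.932, 1.04 and 0.947 FPKM in the siNC libraries and at 0.4, 0.354 and 0.413 FPKM in the siPGC1a libraries, so the labels of all 6 libraries held. The ratio of the means was 0.40. The log2 fold change was -0.51 on the log2(FPKM + 1) scale (SE 0.0659, limma adjusted p = 0.000235) and -1.14 with 0.1 added in place of 1. The melanocytic markers S100B (802 FPKM in siNC), DCT (394 FPKM) and SOX10 (246 FPKM) were high. The pigment cell markers MLANA, TYR and TYRP1 were at 1.86, 1.44 and 1.08 FPKM in siNC. Some of these markers differed between the groups: of 8 tested melanoma identity genes 1 rose, 4 fell and 3, SOX10 among them, did not pass. The median log2 fold change was -0.27, and 62.5% were called, against 48.1% of all genes tested (22.5% lower). DCT fell to a ratio of 0.643, MITF to 0.762, PMEL to 0.714 and MLANA to 0.547, and S100B rose 1.15-fold, while the summed level of the 9 listed genes was 1480 to 1520 FPKM in siNC and 1450 to 1460 FPKM in siPGC1a. The summed levels of 5 immune markers (1.74 to 2.68 FPKM over all libraries) and of the 4 endothelial markers in the table (0.818 to 1.2 FPKM) were low, with PTPRC at 0 in every library. PECAM1, the fifth endothelial marker listed, was not analysed here. Of 6 fibroblast markers, which melanoma cells can also express, the 4 tested were called lower in siPGC1a, as were 22.5% of all genes tested. The summed level of all 6 was 19.5 to 20.7 FPKM in siNC and 13.9 to 15.6 FPKM in siPGC1a. Of 6 keratinocyte markers only KRT10 passed the filter (20.6 ± 0.412 and 22.4 ± 2.66 FPKM, SD, n = 3), and KRT1 was at 0 in every library. In bulk RNA, fewer cells of a type and less RNA per cell cannot be told apart. The part of these markers in the results below was not tested.

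Levels were compared as log2(FPKM + 1) with limma across 12020 genes, with an adjusted p of 0.05 as the threshold, and all 10 genes passed the filter of a mean of 1 FPKM. Of the 10 genes, 7 rose (DUSP4, DUSP5, DUSP6, SPRY1, SPRY2, SPRY4 and SPRED1), 1 fell (ETV5) and 2 did not pass (SPRED2 and ETV4). Across all genes tested, 25.6% were called higher and 22.5% lower, 48.1% in all. The 7 rises spanned a wide range of sizes, from 8.24% (DUSP6) to 81.9% (SPRY4) in mean FPKM. The median log2 fold change of the 10 genes was 0.15, against 0.01 for all genes tested. More abundant genes leaned upwards as a whole. At a mean of at least 5 FPKM, which all of the 10 but SPRY1 passed, the median of all genes was 0.047. Of those 7272 genes, 2519 were called higher and 1607 lower. The changes of SPRY4, DUSP5, DUSP4 and SPRY1 lay above the 95th percentile of all genes (0.38), and those of the other 6 lay between the 5th (-0.40) and the 95th. In each of the 10 genes the values of the 2 groups did not overlap, with siPGC1a higher in 8 and lower in 2. Such separation was common: it held upwards in 29.8% and downwards in 27.4% of all genes tested.

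**Figure D1:**
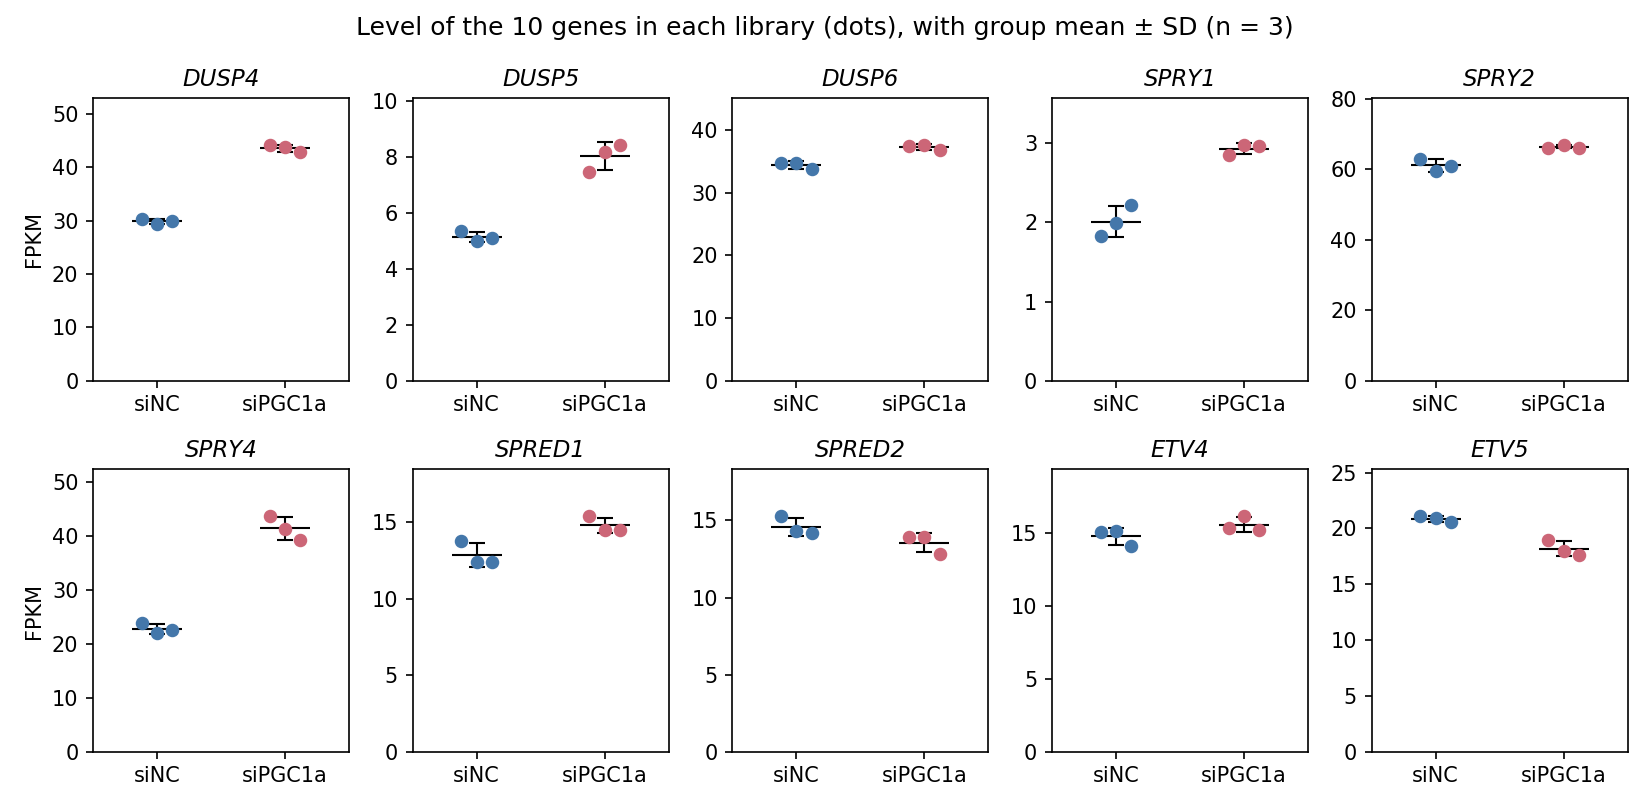
Each panel plots the FPKM of 1 gene in the 3 siNC and the 3 siPGC1a libraries (dots), with the group mean and SD as bars (n = 3) and a linear axis from 0. The groups lie far apart for SPRY4 (22.0 to 23.8 against 39.3 to 43.7 FPKM) and DUSP4, and close together for SPRED2 and ETV4.

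Sequence upstream of a start site is shown for the 3 Sprouty genes, which rose together by unequal amounts, and a short stretch is shown for DUSP6, the only gene where a searched motif was found. The sequences are from RefSeq promoter records (GRCh38.p14), which matched 6 of the 10 genes: DUSP6, SPRY1, SPRY2, SPRY4, SPRED1 and SPRED2. They run 5′ to 3′ on the strand of the gene. SPRY1 (chr4:123396545-123396794, + strand) and SPRY2 (chr13:80341127-80341376, - strand) are the 250 bases before the first start on record. SPRY4 (chr5:142324418-142324497, - strand) is the part of that window outside annotated exons, from 250 to 171 bases before the start, and GENCODE places other starts of SPRY4 further upstream. DUSP6 (chr12:89352502-89352531, - strand) is the last 30 bases before the start, and its capitals mark the motif. In GENCODE the DUSP6 window searched overlaps annotated exon of DUSP6 itself and of an antisense transcript, so the motif may lie within annotated exon.
SPRY1: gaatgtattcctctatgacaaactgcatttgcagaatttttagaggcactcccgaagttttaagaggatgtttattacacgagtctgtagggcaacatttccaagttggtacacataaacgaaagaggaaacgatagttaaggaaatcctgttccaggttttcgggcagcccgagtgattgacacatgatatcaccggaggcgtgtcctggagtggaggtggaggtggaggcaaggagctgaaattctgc
SPRY2: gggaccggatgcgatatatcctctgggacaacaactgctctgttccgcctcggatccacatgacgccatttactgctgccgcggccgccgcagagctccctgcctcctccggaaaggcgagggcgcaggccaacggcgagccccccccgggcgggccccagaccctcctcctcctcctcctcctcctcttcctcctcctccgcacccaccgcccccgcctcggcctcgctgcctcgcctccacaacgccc
SPRY4: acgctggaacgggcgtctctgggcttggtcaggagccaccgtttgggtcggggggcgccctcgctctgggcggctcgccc
DUSP6: aatgtaTCCATTGAgacgctcgctgtttgt

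Each 250-base window was searched on both strands for words bound by factors of this pathway or by partners of PGC1-alpha. The words were those of CIC (TGAATGAA, TGAATGGA, TCAATGAA or TCAATGGA), AP-1 (TGACTCA or its reverse complement), CREB (TGACGTCA), ETS factors (CCGGAAGT or CCGGAAGC) and estrogen-related receptors (AAGGTCA). The DUSP6 window held 1 CIC word, 24 bases before the start, and no window of the other 5 genes held any of the words. Among 35116 promoter windows of the same length, 3.2% held a CIC word, 4.2% an AP-1 word, 1.6% the CREB word, 6.1% an ETS word and 3.4% the estrogen-related receptor word. A match is a match of letters only, and windows without one say nothing of other sites or of binding.

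Among the phosphatases, all 3 genes rose, DUSP4 and DUSP5 by more than DUSP6. DUSP4, a nuclear phosphatase that acts on ERK and on stress kinases, was at 30.2, 29.4 and 30.0 FPKM in the siNC libraries and at 44.1, 43.8 and 42.8 FPKM in the siPGC1a libraries. Every siPGC1a value lay far above every siNC value, and the spread within either group was small. The mean went from 29.9 ± 0.457 to 43.6 ± 0.692 FPKM (SD, n = 3), a ratio of 1.46 (log2 fold change 0.53, SE 0.0365, limma adjusted p = 6.93e-06).

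DUSP5, a nuclear phosphatase with a preference for ERK, was the least abundant of the 3 phosphatases. It was at 5.36, 5.01 and 5.09 FPKM in siNC and at 7.46, 8.18 and 8.42 FPKM in siPGC1a, again without overlap. The mean rose from 5.15 ± 0.181 to 8.02 ± 0.503 FPKM (SD, n = 3), a ratio of 1.56 (log2 fold change 0.55, SE 0.0532, limma adjusted p = 4.18e-05). About 335 to 370 reads stood behind each siNC value and 498 to 573 behind each siPGC1a value, where counting alone gives a coefficient of variation of 5.37 and 4.32%, against 3.52 and 6.27% seen between libraries. DUSP5P1, a pseudogene copy of DUSP5 with which reads could be shared, was listed at 0.066 to 0.309 FPKM.

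DUSP6, the cytoplasmic phosphatase that is most selective for ERK, was at 34.7, 34.8 and 33.7 FPKM in siNC and at 37.4, 37.6 and 36.8 FPKM in siPGC1a. The groups did not overlap, yet they lay only 2.83 FPKM apart, and the ratio was 1.08 (log2 fold change 0.11, 95% interval 0.03 to 0.19, limma adjusted p = 0.0294). This call was lost in 7 of the 14 other settings, among them leaving out any single library other than siPGC1a replicate 3 (adjusted p of 0.0549 to 0.137) and quantile scaling (log2 fold change 0.05, adjusted p = 0.271). Its exons share 1875 bases with a transcript annotated on the other strand, and whether the counting used strand is not given in the sources used here. In FPKM, DUSP4 thus went from below DUSP6 in every siNC library (DUSP4 to DUSP6 ratio of 0.844 to 0.89) to above it in every siPGC1a library (1.16 to 1.18). This order rests on the gene lengths used: in estimated reads DUSP4, the longer gene, was above DUSP6 in siNC too (5452 to 5803 against 3946 to 4255).

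All 3 Sprouty genes also rose, and SPRY4 rose the most of the 10 genes. SPRY4, a membrane-associated inhibitor of receptor signalling to RAS and RAF, was at 23.8, 22.0 and 22.6 FPKM in siNC and at 43.7, 41.4 and 39.3 FPKM in siPGC1a. The lowest siPGC1a library stood well above the highest siNC library. The mean went from 22.8 ± 0.927 to 41.5 ± 2.17 FPKM (SD, n = 3), a ratio of 1.82 (log2 fold change 0.84, 95% interval 0.72 to 0.94, limma adjusted p = 2.97e-06), and its log2 fold change ranked 55 among 12020 genes from the highest. SPRY4-AS1, annotated on the other strand, was listed at 0.28 to 0.509 FPKM and shares no exon bases with SPRY4.

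SPRY1, which is known for restraining receptor signalling in development, was the least abundant of the 10 genes. Its values were 1.82, 1.99 and 2.22 FPKM in siNC and 2.85, 2.98 and 2.97 FPKM in siPGC1a. All 3 siPGC1a values were higher, and the mean rose from 2.01 ± 0.198 to 2.93 ± 0.0684 FPKM (SD, n = 3; ratio 1.46, log2 fold change 0.39, limma adjusted p = 0.0007). The addition of 1 FPKM before taking logs reduces this log2 value, since the levels are low: with 0.1 in its place the log2 fold change was 0.53. About 191 to 306 reads per library stood behind SPRY1.

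SPRY2, the Sprouty protein best known for binding the ubiquitin ligase CBL and the adaptor GRB2, was the most abundant of the 10 genes in both groups. It was at 63.0, 59.4 and 60.9 FPKM in siNC and at 66.2, 66.9 and 66.1 FPKM in siPGC1a. The highest siNC library came close to the lowest siPGC1a library. The ratio was 1.09 (log2 fold change 0.12, 95% interval 0.04 to 0.20, limma adjusted p = 0.0236), and the call was lost without siNC replicate 2 (adjusted p = 0.0975), siNC replicate 3 (0.0884) or siPGC1a replicate 2 (0.0594) and with quantile scaling (log2 fold change 0.04, adjusted p = 0.466). SPRY4 made up 26.3 to 26.9% of the summed Sprouty FPKM in the siNC libraries and 36.3 to 38.8% in the siPGC1a libraries, while SPRY2 made up 71.1 to 71.2% in siNC and 58.7 to 61.0% in siPGC1a.

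**Figure D2:**
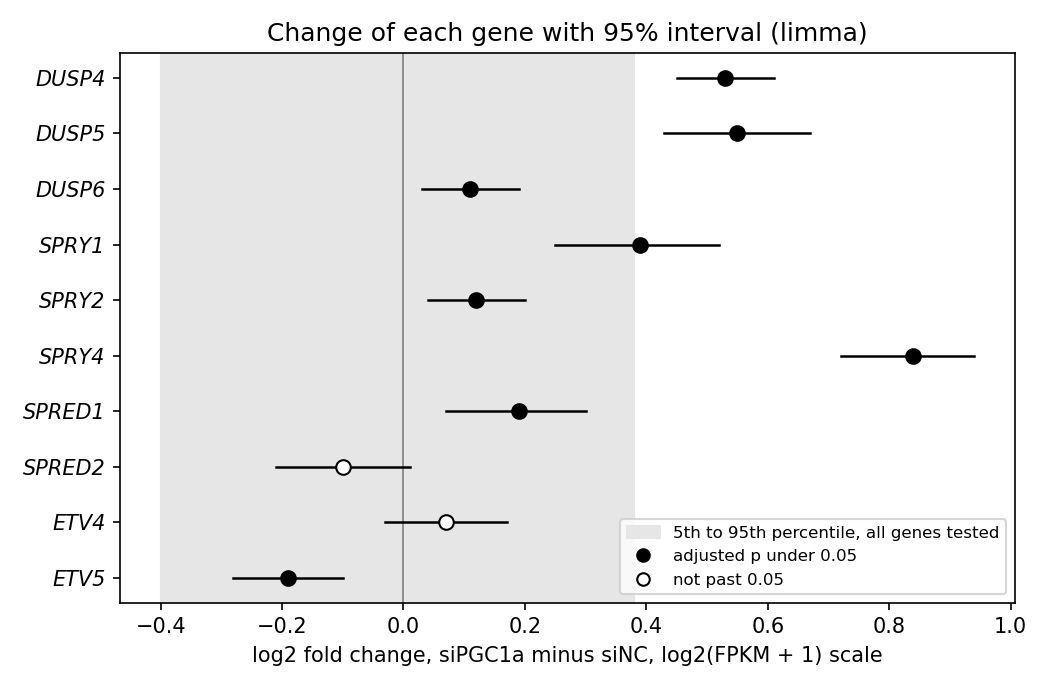
The log2 fold change of each of the 10 genes from siNC to siPGC1a, in log2(FPKM + 1), is drawn with its limma 95% interval, filled where the adjusted p is under 0.05, over a grey band from the 5th to the 95th percentile of all 12020 genes tested. SPRY4 (0.84), DUSP5 (0.55), DUSP4 (0.53) and SPRY1 (0.39) lie above the band, and ETV5 (-0.19) is the gene that fell.

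The SPRED genes differed from each other. SPRED1, whose loss in people causes a condition with pigmented skin spots, was at 13.8, 12.4 and 12.4 FPKM in siNC and at 15.4, 14.5 and 14.5 FPKM in siPGC1a. One siNC library came close to the lowest siPGC1a value. The mean rose from 12.8 ± 0.791 to 14.8 ± 0.516 FPKM (SD, n = 3; log2 fold change 0.19, 95% interval 0.07 to 0.30, limma adjusted p = 0.0131). Leaving out siNC replicate 3 (adjusted p = 0.0607) or siPGC1a replicate 1 (0.0510), or dropping the filter on low values (0.0523), ended this call.

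SPRED2, its paralog, was at 15.3, 14.3 and 14.2 FPKM in siNC and at 13.9, 13.9 and 12.8 FPKM in siPGC1a. The siPGC1a values were lower, by 1.0 FPKM on average, without passing the test (log2 fold change -0.10, 95% interval -0.21 to 0.01, limma adjusted p = 0.13). With quantile scaling SPRED2 was called lower (log2 fold change -0.14, adjusted p = 0.0425). The SPRED1 to SPRED2 ratio was 0.869 to 0.902 in siNC and 1.04 to 1.13 in siPGC1a, so that the order of the 2 levels in FPKM was reversed in every siPGC1a library. The summed SPRED level was 26.5 to 29.0 FPKM in siNC and 27.3 to 29.3 FPKM in siPGC1a, and these ranges overlap.

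The ETS factor genes did not rise past the threshold. ETV5 was at 21.1, 21.0 and 20.6 FPKM in siNC and at 19.0, 18.0 and 17.6 FPKM in siPGC1a. All 3 siPGC1a values were lower, and the mean went from 20.9 ± 0.276 to 18.2 ± 0.694 FPKM (SD, n = 3), a ratio of 0.872 (log2 fold change -0.19, 95% interval -0.28 to -0.10, limma adjusted p = 0.00462). ETV5 was called lower in all 14 other settings, with a log2 fold change of -0.23 to -0.16. ETV5-AS1, its antisense transcript, was listed at 0 in every library, and 164 exon bases are shared with DGKG on the same strand (mean 0.331 FPKM).

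ETV4, the founding PEA3 factor, was at 15.1, 15.1 and 14.1 FPKM in siNC and at 15.4, 16.1 and 15.2 FPKM in siPGC1a. The 2 groups nearly touched, and the mean was 14.8 ± 0.575 and 15.6 ± 0.506 FPKM (SD, n = 3; log2 fold change 0.07, 95% interval -0.03 to 0.17, limma adjusted p = 0.222). Its exons share 68 bases with the tested gene DHX8 on the other strand. The ETV4 to ETV5 ratio was 0.687 to 0.722 in siNC and 0.811 to 0.898 in siPGC1a.

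**Figure D3:**
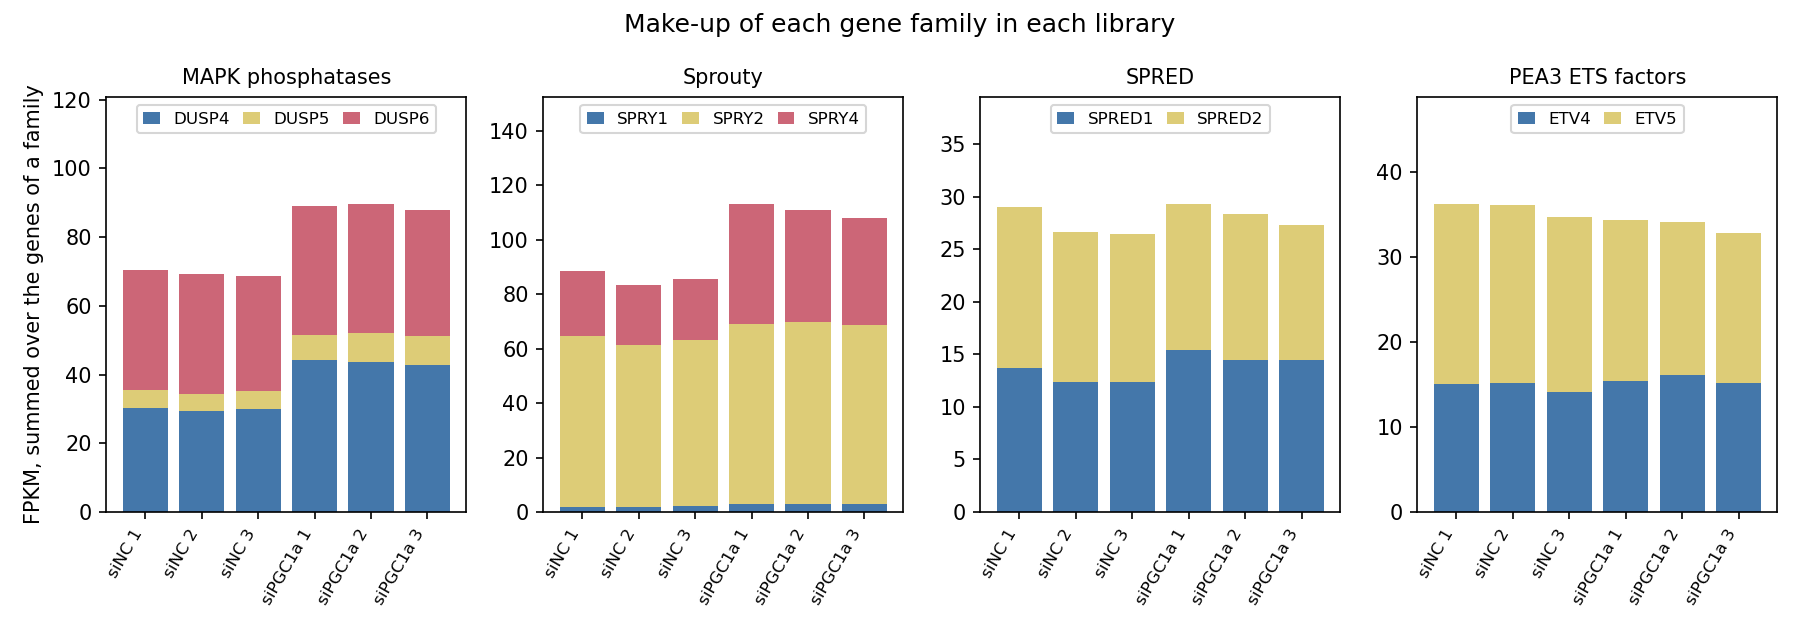
Stacked bars give the FPKM of the phosphatase, Sprouty, SPRED and ETS factor genes, summed within each family, for each of the 6 libraries. The phosphatase sum is 68.8 to 70.3 FPKM in siNC and 88.0 to 89.5 FPKM in siPGC1a, the Sprouty sum 83.4 to 88.6 and 108 to 113 FPKM, and the SPRED and ETS factor bars differ little in height.

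By level in FPKM, the order in siNC was SPRY2, DUSP6, DUSP4, SPRY4, ETV5, ETV4, SPRED2, SPRED1, DUSP5 and SPRY1. Such an order between genes rests on the gene lengths that the authors used, which are not given in the sources used here. Only the neighbours ETV4 and SPRED2 overlapped between libraries. In siPGC1a the order was SPRY2, DUSP4, SPRY4, DUSP6, ETV5, ETV4, SPRED1, SPRED2, DUSP5 and SPRY1, with overlap between DUSP4 and SPRY4 and between ETV4 and SPRED1. SPRY2 stood at the 94.9th percentile of the mean level of all genes tested and SPRY1 at the 19.5th.

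For each of the 10 genes, the exact two-sided permutation test of 3 against 3 libraries gave p = 0.1, the smallest that this design allows. Across settings, the calls of DUSP4, DUSP5, SPRY4 and ETV5 held in all 14 alternatives, and that of SPRY1 in the 13 that tested it. Without siNC replicate 3, the number of the 10 genes called higher fell from 7 to 4 (DUSP4, DUSP5, SPRY1 and SPRY4).

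The 3' UTR of each gene was searched for ACACCT, a word that earlier results of these data tied to lower transcripts in siPGC1a. Of the 10717 genes tested with an annotated 3' UTR, 3226 held it, of which 33.2% were called lower, against 17.6% of the 7491 without it. Called higher were 18.4% of the genes with the word and 31.1% of those without. Because the word was taken from these same data, the shares are no independent test of it. Genes with and without the word were not matched for 3' UTR length, and the part of length in these shares was not tested. Among the 10 genes the word stood once in ETV4 and once in SPRED1 and in none of the other 8, ETV5 included. Of the other pathway genes named below as lower, NRAS, GRB2, ATXN1, PEA15, ETV6 and PHLDA1 held the word, and RASAL2 and ETS1 did not. Of those named as higher, DUSP2, SH2B3, ELK3, MAP2K1 and LIF held it, and DUSP10, RASA2, ELK1, HRAS and FOSL1 did not. The part of the word in the changes of any of these genes was not tested.

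Other genes of the pathway were taken from 7 lists with 84 genes in the table, of which 78 were tested. Of these, 25 rose, 23 fell and 30 did not pass, with a median log2 fold change of 0.00. The share called was 61.5%, against 48.1% of all genes tested (25.6% higher and 22.5% lower). Among 6 tested MAP kinase phosphatases outside the 10 genes, 3 rose, 0 fell and 3 did not pass (50.0% called). DUSP10, which acts on stress kinases, rose from 13.8 ± 0.211 to 19.5 ± 0.451 FPKM (SD, n = 3; limma adjusted p = 1.89e-05). DUSP2, a nuclear phosphatase, was at 0.961, 0.993 and 1.03 FPKM in siNC and at 2.31, 2.22 and 2.17 FPKM in siPGC1a. It counts among the 3 that rose. DUSP2 passed the filter only through the siPGC1a libraries, so its call gives no independent support. DUSP8 stayed below the filter at 0.75 to 1.10 FPKM. Of the family genes outside the 10, SPRY3 was listed at 0 in every library, and SPRED3 and ETV1 were tested and did not pass.

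Partners and regulators of these proteins gave 0 higher, 4 lower and 8 not past of 12 tested. That is 33.3% called, against 48.1% of all genes tested. GRB2, the adaptor that Sprouty binds, fell from 24.6 ± 0.732 to 19.9 ± 0.247 FPKM (SD, n = 3; limma adjusted p = 0.000288). ATXN1, a partner of the repressor CIC, fell from 2.80 ± 0.135 to 2.10 ± 0.158 FPKM (SD, n = 3; limma adjusted p = 0.00282). Among 10 other negative regulators of receptor and ERK signalling 4 rose, 5 fell and 1 did not pass (90.0% called). SH2B3, an adaptor that restrains cytokine receptor signalling, rose 1.99-fold to 32.8 ± 1.04 FPKM, RASA2, a RAS inactivator, rose 1.43-fold, and RASAL2 and PEA15 fell to ratios of 0.634 and 0.782.

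ETS factors outside the PEA3 group gave 2 higher, 2 lower and 7 not past of 11. That is 36.4% called, against 48.1% of all genes tested. ELK1 and ELK3, which act with serum response factor, rose 1.37-fold and 1.22-fold, and ETV6 and ETS1 fell to ratios of 0.816 and 0.860. The cascade from receptor to ERK gave 6 higher, 11 lower and 7 not past of 24 (70.8% called), with a median of -0.01. NRAS fell to a ratio of 0.507, while MAP2K1, which encodes MEK1, and HRAS rose 1.32-fold and 1.26-fold. Of 13 other ERK output genes 10 rose, 1 fell and 2 did not pass (84.6% called), with a median of 0.32. LIF rose 2.24-fold and FOSL1 2.16-fold, and PHLDA1 fell to a ratio of 0.914. Members of this last list were known from earlier results of these data to have risen.

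**Figure D4:**
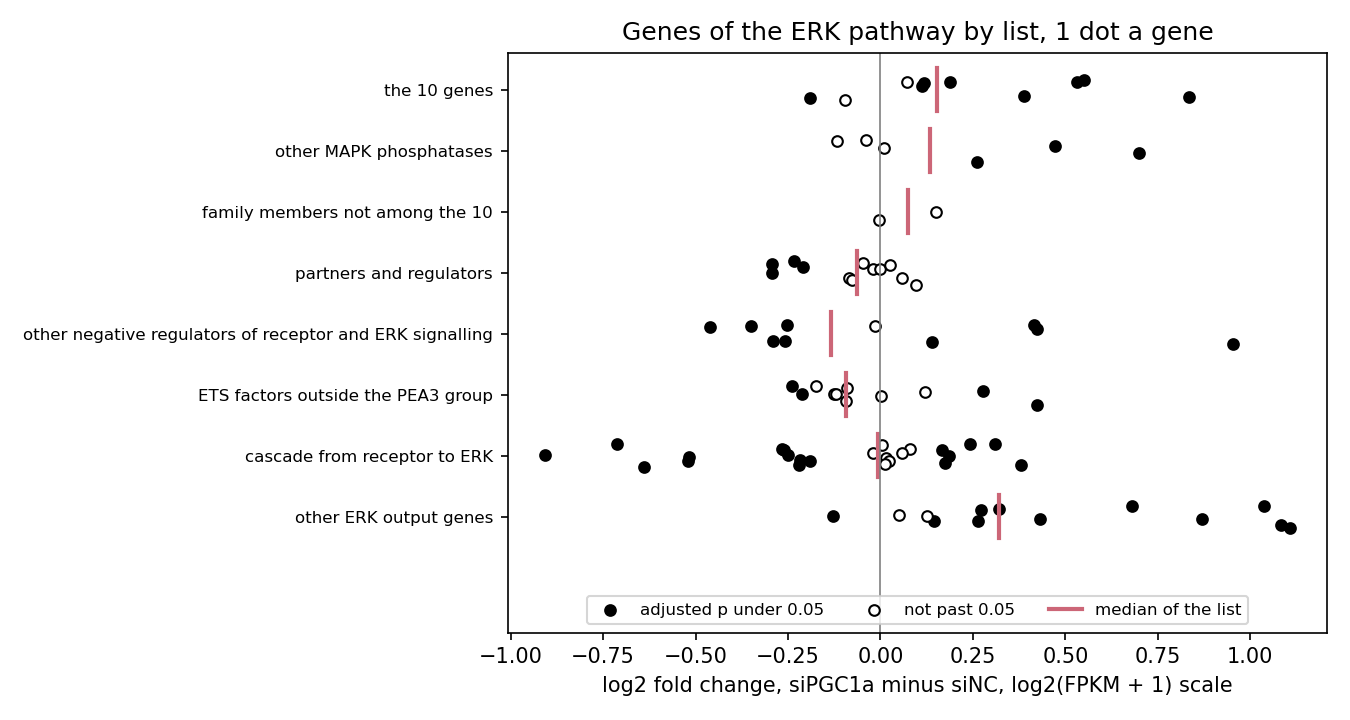
Each dot is the log2 fold change of 1 tested gene from siNC to siPGC1a, in log2(FPKM + 1), by list, filled where the limma adjusted p is under 0.05, with the list median as a red line and dots spread vertically at random within a list. The medians are 0.15 for the 10 genes, 0.32 for other ERK output genes and -0.01 for the cascade, whose genes lie on both sides of 0.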

How the data were processed

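The deposited table gives FPKM, computed by the authors per gene and library. Per the submitters' processing notes, STAR, Picard, featureCounts, DESeq2 and hg19 were used, with no version or role stated. The annotation and strand setting are not given in the sources used here. Of 57688 rows, 26707 were at 0 in every library. Genes with a mean of at least 1 FPKM over the 6 libraries, and PPARGC1A regardless, were tested (12020 genes) as log2(FPKM + 1) with limma 3.58.1 in R 4.3.3 (two-sided, with a variance trend and without a replicate block) and adjusted by Benjamini-Hochberg over all genes. Adding 1 understates changes of low genes. The fit was tested on simulated data with independent normal noise of the spread seen here. Such data meet the assumptions of the fit, so that test cannot show whether the calls hold for separate cultures. Reads per library were estimated from low values of miRNA genes and GENCODE v29 exon lengths (GRCh38), which made 91.6 to 92.1% of values up to 20 reads whole within 0.1 read. They stand for the library size in the FPKM scaling, which may differ from the reads sequenced. Reads behind a gene are estimates, and counting errors from them cover counting only. The chi-square per degree of freedom of these reads was 1.95 to 5.83 for libraries of one group and 27.19 to 36.53 across groups, so no library was a copy of another. Coordinates are those of RefSeq records only.

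The members, lists and 3' UTR word were chosen with earlier results of these data known, and the motifs were chosen after the members' values were seen. The genes named besides the 10 are PPARGC1A, up to 2 genes per pathway list and direction with the largest called change, the most abundant marker of each cell type and transcripts named after a member, and 1 gene that this rule takes is not reported here. Further markers, genes under the filter and DHX8 are named where a count or value turns on them. Alternatives were a pseudocount of 0.1, no filter or a mean of at least 5 FPKM, 2 scalings, array weights, no variance trend, a replicate block and leaving out each library.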

Additional observations from a re-analysis of the deposited data

How the results depend on the processing

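A filter at a mean of 5 FPKM tested 7272 genes in place of 12020. It called 2519 genes higher against 3075 and 1607 lower against 2707. Of the pathway list genes it called 18 higher against 25 and 14 lower against 23. With fewer genes tested, lower counts alone do not show a lower share called. The number of pathway list genes that passed this filter is not given here. Quantile scaling called 2 of the 10 genes lower (ETV5 and SPRED2) against 1, and the cause was not tested. Leaving out each library gave 4 to 7 of the 10 genes called higher, 1 called lower, 2470 to 2896 of all genes called higher and 2176 to 2513 called lower, and a PPARGC1A log2 fold change of -0.52 to -0.48. With a pseudocount of 0.1 the PPARGC1A value was -1.14. No gene of the 10 changed direction in any alternative. The correlations of same-numbered libraries' deviations were 0.08, 0.26 and -0.06, and those of differently numbered libraries ran from -0.33 to 0.25. So few values cannot decide whether the replicate numbers pair the samples. With a replicate block, 3253 genes were called higher and 2826 lower, against 3075 and 2707 without it. Of the 10 genes, 7 were called higher and 1 lower, as without the block. Among the 10 genes depth limits SPRY1 most, at 191 to 306 reads per library, and PPARGC1A rests on 97 to 290.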
